A study of Mus musculus with 6 samples.

Results

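The Hox genes of mouse pluripotent cells were followed across 6 one-colour Agilent arrays. Members were all genes whose symbol is Hoxa, Hoxb, Hoxc or Hoxd with a number, 39 in all, and 37 of them had a named probe among the 17016 genes named on the array. Hoxc6 and Hoxc11 were not analysed here. Each measured gene is represented by its brightest probe. Mouse embryonic stem (mES) cells, which are naive pluripotent cells of stage E3.5, were set beside epiblast stem cells (EpiSCs) labelled E3.5 and EpiSCs labelled E5.5. All cells were of strain 129 and were grown in Knockout DMEM with KSR, a serum replacement. Each was taken untreated and after SB431542, which blocks the receptor kinases that pass on TGF-beta, Nodal and Activin signals, given each day at 20 µM over 4 days. There was 1 array in each of the 6 groups, so none has its own replicate, and nothing says how many lines or clones stand behind a group.

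Hox genes encode homeodomain transcription factors that give cells their position along the head-to-tail axis. They lie in 4 clusters, and genes at one end of a cluster (low paralogue numbers) act in the hindbrain, whereas those at the other end act in the trunk, tail and limbs. Naive stem cells keep the clusters under Polycomb repression, and retinoic acid, Wnt and Fgf signals open them in order. The paralogue groups 1 to 4 are called anterior here, 5 to 8 central and 9 to 13 posterior.

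The upstream sequences of 4 members are shown because these genes lie at opposite ends of the clusters and differed in direction after SB431542: Hoxa2 and Hoxb1 were higher on both treated EpiSC arrays, Hoxa13 and Hoxd13 lower on both. Each is the 250 bases before the transcription start in RefSeq (build GRCm38.p6), 5′ to 3′ on the gene's strand, and capitals mark every match to the motifs listed after them.
Hoxa2, chr6:52164832-52165081, minus strand: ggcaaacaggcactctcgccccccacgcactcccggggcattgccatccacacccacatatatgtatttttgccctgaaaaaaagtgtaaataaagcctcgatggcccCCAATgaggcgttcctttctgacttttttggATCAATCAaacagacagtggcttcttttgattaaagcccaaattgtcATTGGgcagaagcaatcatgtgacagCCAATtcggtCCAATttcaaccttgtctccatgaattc
Hoxb1, chr11:96365508-96365757, plus strand: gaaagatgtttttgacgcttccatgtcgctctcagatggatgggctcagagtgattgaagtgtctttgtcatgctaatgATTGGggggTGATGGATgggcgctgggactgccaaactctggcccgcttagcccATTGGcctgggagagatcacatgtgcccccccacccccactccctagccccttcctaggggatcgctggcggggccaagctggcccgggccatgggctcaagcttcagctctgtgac
Hoxa13, chr6:52260881-52261130, minus strand: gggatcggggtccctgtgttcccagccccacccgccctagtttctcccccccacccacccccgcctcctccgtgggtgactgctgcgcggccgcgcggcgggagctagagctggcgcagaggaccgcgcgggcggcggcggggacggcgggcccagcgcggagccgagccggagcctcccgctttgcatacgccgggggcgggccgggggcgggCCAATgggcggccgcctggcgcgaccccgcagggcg
Hoxd13, chr2:74667975-74668224, plus strand: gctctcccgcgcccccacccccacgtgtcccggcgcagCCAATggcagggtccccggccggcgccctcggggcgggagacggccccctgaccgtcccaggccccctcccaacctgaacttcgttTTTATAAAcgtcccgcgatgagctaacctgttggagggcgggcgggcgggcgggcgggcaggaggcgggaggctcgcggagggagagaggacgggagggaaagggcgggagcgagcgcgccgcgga
The motifs, searched on both strands, were the TATA box as TATAAA, the CCAAT box by its own letters, the half-site of retinoic acid receptors as AGGTCA, the Cdx site as TTTATG and, as TGATNNAT, the joint site of Hox and Pbx proteins, which was added after the values were seen. Matches may overlap, as both TATA matches of Hoxd13 do. The Hoxa2 window held 4 CCAAT matches and 1 match to TGATNNAT, 111 bases before the start. In the Hoxb1 window there were 2 CCAAT matches, and TGATNNAT lay 162 bases before the start. Hoxa13 and Hoxd13 had 1 CCAAT match each and no match to TGATNNAT. The other Hox windows with a match to TGATNNAT belonged to Hoxb8, a central gene, and Hoxd11, a posterior one. Of all 32851 RefSeq promoter windows of this length, 33.8% held the CCAAT box, 12.4% the TATA box, 14% the receptor half-site, 10.8% the Cdx site and 7.68% the Hox and Pbx site. The 24 Hox windows, from 22 genes with an entry, held them in 14, 4, 6, 5 and 4 windows. The windows of Hoxa13 and Hoxd13 held 35 and 31 CpG dinucleotides, those of Hoxa2 and Hoxb1 6 and 7, and the median over all promoters was 6. Over the other Hox windows the counts overlapped between classes, with 24 in anterior Hoxd1, 28 in central Hoxa5 and 3 in posterior Hoxa9. These matches describe the letters only.

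Signal well above background on 1 array or more was found for 36 of the 37 measured genes, which entered the tests, and on all 6 arrays for 27. Hoxc12 was above background on none. Between 30 and 34 of the 37 were above background on any 1 array, and 30 to 31 were so on the mES arrays. Most genes passed this mark: of all 17016 named genes, 16153 did on 1 array or more and 14475 on all 6. On single arrays 89.4% to 92.6% of all genes passed, so the Hox counts do not stand out as high. A level is the log2 of the signal over the array's 75th percentile, and a fold cannot be read between genes, because probes differ in brightness. In sentences that give a pair of values, the untreated array comes first. On this scale 20 members spanned a log2 range of 2 or more over the 6 arrays, and the others are given by range. The share of all genes with such a range is not given. In RNA from whole cultures, fewer cells of a type and less RNA per cell cannot be told apart.

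**Figure D1:**
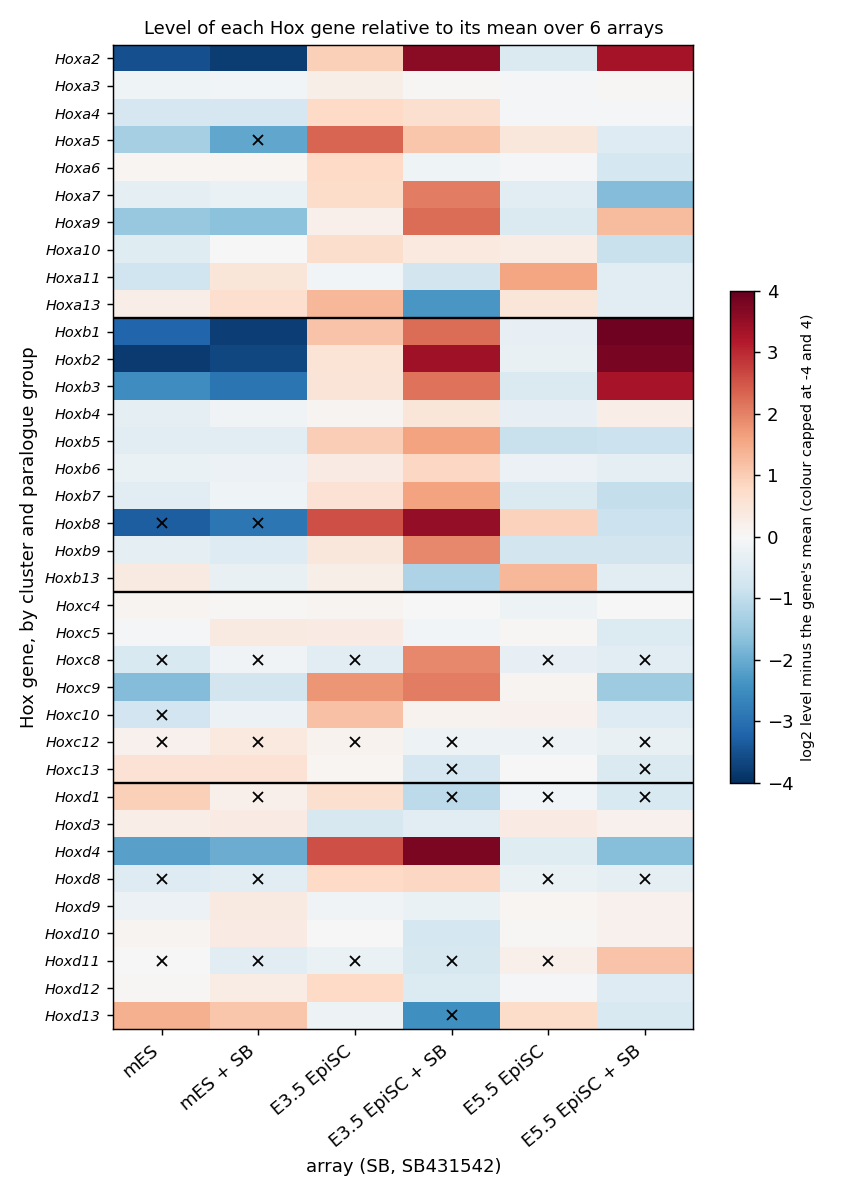
Log2 level of 36 of the 37 measured Hox genes on the 6 arrays, each minus the gene's mean over the arrays, with red above and blue below that mean. Crosses mark values not well above background. Hoxa2, Hoxb1, Hoxb2 and Hoxb3 are blue on both mES arrays and deepest red on the treated EpiSC arrays. By their brightest probes, Hoxa3 and Hoxc4 are nearly flat, with ranges of 0.39 and 0.31, but a dimmer Hoxa3 probe varied more.

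The labels were first checked against marker genes. Pou5f1, a core pluripotency factor, stood at 5.59 and 5.35 in mES cells, at 5.73 and -5.39 in E3.5 EpiSCs and at 5.88 and -4.38 in E5.5 EpiSCs. All 6 naive markers were at least 2-fold lower in both untreated EpiSC groups than in mES cells, and 1 passed in limma as lower. Of 5 primed markers 2 passed in limma as higher, and 3 were at least 2-fold higher in E3.5 EpiSCs and 4 in E5.5 EpiSCs. The primed marker Otx2 was not higher in untreated E3.5 EpiSCs, at -0.18 beside -0.04 in mES cells. After SB431542 in EpiSCs, 2 of 3 pluripotency markers and 2 of 5 primed markers fell, 3 of 6 neural markers rose and 1 of 3 trophectoderm markers fell. None of 3 endoderm and 4 axial or lateral mesoderm markers passed in limma, and 0 had an unadjusted p under 0.05. Fibroblast markers, whose cells express Hox genes too, were measured for 17 of 18 genes. All 17 were well above background on every array, mES cells included, and the 6 defining ones among them also, so none is at 0. Their summed signal, in multiples of the 75th percentile, was 47.0 and 70.7 in mES cells, 80.1 and 72.3 in E3.5 EpiSCs and 133 and 128 in E5.5 EpiSCs. For the defining markers it was 6.79 and 16.7, 5.90 and 16.8, and 22.7 and 12.5. The brightest markers weigh most in such sums. On the untreated mES, E3.5 EpiSC and E5.5 EpiSC arrays the brightest of the 17 stood at 4.81, 5.29 and 5.31. The medians of the 17 were -0.04, 0.17 and 1.29 in that order. The part of fibroblasts in the Hox values was not tested. The mES and E5.5 EpiSC arrays shared slide 1, and the E3.5 EpiSC arrays lay on slides 2 and 3, 1 on each. Any difference that involves the E3.5 EpiSC arrays, their own treated pair included, therefore cannot be told apart from the slide, whereas E5.5 EpiSCs against mES cells and the treated pairs of both lie within slide 1.

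The untreated EpiSCs were compared with untreated mES cells to ask which Hox genes differ between primed and naive cells. Hoxb2 rose in EpiSCs, and the anterior genes Hoxa2, Hoxb1 and Hoxb3 had higher levels on every EpiSC array than on any mES array. Central and posterior members did so too, among them Hoxa5 and Hoxa9. The share of all genes that separate in this way, here and below, is not given. Hoxb2, which patterns hindbrain segments, stood at -3.49 and -3.30 in mES cells, at 0.88 and 3.71 in E3.5 EpiSCs and at 0.04 and 4.12 in E5.5 EpiSCs. Both untreated EpiSC values lay over 3 log2 units above the mES values. The difference was 3.95 ± 0.48 (SE, 4 arms over 6 arrays, limma adjusted p = 0.0462), and it was positive in both EpiSC lines, at 4.37 and 3.53. This was the sole call, 1 of 36 members as higher and 0 as lower, beside 0.39% of the 16151 genes tested as higher and 1.11% as lower. By unadjusted p under 0.05, 5 members were higher and 0 lower, beside 8.46% and 7.89% of all genes.

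Hoxa2, which sets the identity of the second pharyngeal arch, stood at -5.09 and -5.38 in mES cells, at -0.63 and 2.005 in E3.5 EpiSCs and at -2.18 and 1.73 in E5.5 EpiSCs. Hoxb1, which specifies the fourth hindbrain segment, stood at -5.19 and -5.81, at -0.89 and 0.20, and at -2.35 and 1.85 in the same order. Hoxb3, active in the caudal hindbrain, stood at -5.09 and -5.52, at -2.09 and -0.44, and at -3.17 and 0.70. For these 3 genes the mES and EpiSC arrays did not overlap. The differences between untreated EpiSCs and mES cells were 3.69 ± 0.70 for Hoxa2 (limma adjusted p = 0.0979), 3.57 ± 0.93 for Hoxb1 (adjusted p = 0.166) and 2.46 ± 0.70 for Hoxb3 (adjusted p = 0.195), none past 0.05. Hoxb1 was spotted 10 times per array, and the SD of its repeat spots ran from 0.04 to 0.22, far below the differences between arrays; these spots measure 1 sample.

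Without the E5.5 EpiSC array Hoxa2 also passed, at 4.46 (limma adjusted p = 0.0295). Hoxb2 passed in each fit that changed the background correction, scaling, filter or probe rule, with adjusted p from 0.0361 to 0.04996. It missed without the E3.5 EpiSC array and without either treated EpiSC array. A fit on slide 1 alone also missed (limma adjusted p = 0.111). That fit joined the treated and untreated arrays of E5.5 EpiSCs and of mES cells, so its estimate, 5.48, is not the untreated difference.

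The brightest probe of Hoxb8, a central gene of the trunk, was not well above background on either mES array, where it read -8.91 and -8.49, and stood at -3.04 and -2.08 in E3.5 EpiSCs and at -4.68 and -6.46 in E5.5 EpiSCs. The second Hoxb8 probe was above background on the untreated mES array, at -6.23, so the gene was not below background there by every probe. On the untreated E3.5 EpiSC array it was also above background, at -5.89, close to its mES value. It was not above background on the untreated E5.5 EpiSC array. The large difference between EpiSCs and mES cells thus rests on the brightest probe alone. For the brightest probe, the detection limit makes untreated EpiSCs at least 7.13-fold higher (limma adjusted p = 0.299, not past the threshold); here and elsewhere "at least" sets the brighter mean against the lowest signal well above background on the dimmer array, or the gene's own signal where that was higher. Hoxa5, a central gene of the neck region and lung, stood at -5.39 and -6.13 in mES cells, at -1.73 and -2.95 in E3.5 EpiSCs and at -3.63 and -4.57 in E5.5 EpiSCs. The treated mES value was not well above background. Its class difference was 2.71 ± 1.05 (limma adjusted p = 0.312). Over all 36 members, 30 differences were positive with a median of 0.47, beside 46.1% positive and a median of -0.06 for all genes tested. By a 2-fold rule on single pairs, which has no test, 18 members were higher and 1 lower in E3.5 EpiSCs than in mES cells (10.8% and 12.4% of all genes), and 9 higher and 1 lower in E5.5 EpiSCs (11.7% and 10.6%). The pair within slide 1 gave 3.53 for Hoxb2, 2.91 for Hoxa2, 2.85 for Hoxb1 and 1.92 for Hoxb3.

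SB431542 was given to ask what follows from loss of Activin and Nodal signalling. In EpiSCs the anterior genes Hoxb2, Hoxa2, Hoxb3 and Hoxb1 and the posterior gene Hoxa9 were at least 2-fold higher on the treated array of both lines, while Hoxb13 and Hoxd13 were at least 2-fold lower on both. Only Hoxb2 passed the test, at 3.46 ± 0.40 (SE, limma adjusted p = 0.0391), with 2.83 in E3.5 and 4.08 in E5.5 EpiSCs. In mES cells its difference was 0.18. Among members, 1 of 36 was called higher and 0 lower, beside 0.892% and 1.2% of all genes, and 5 were higher and 3 lower by unadjusted p under 0.05, beside 8.25% and 11.6% of all genes. All genes had a median of -0.19 in this comparison, and the members' median was -0.03. This comparison shares the untreated EpiSC arrays with that of EpiSCs and mES cells, so the values of the 2 are not independent.

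The differences that did not pass were 3.27 ± 0.57 for Hoxa2 (limma adjusted p = 0.0749), 2.76 ± 0.57 for Hoxb3 (0.0992), 1.94 ± 0.48 for Hoxa9 (0.136) and 2.65 ± 0.76 for Hoxb1 (0.175). Treated and untreated arrays of a line form a pair. With the line as a block, Hoxb2 (adjusted p = 0.0249), Hoxa2 (0.0284) and Hoxa9 (0.0368) passed as higher, 3 of 36 beside 2.14% of all genes, and 0 passed as lower beside 2.87%. Hoxa2 also passed with normexp background correction (adjusted p = 0.0321), on genes above background on all 6 arrays (0.0462) and without the E3.5 EpiSC array (0.0246). Hoxb2 missed without the E5.5 EpiSC array (0.0529) and without the treated E5.5 (0.0888) or treated E3.5 EpiSC array (0.153).

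**Figure D2:**
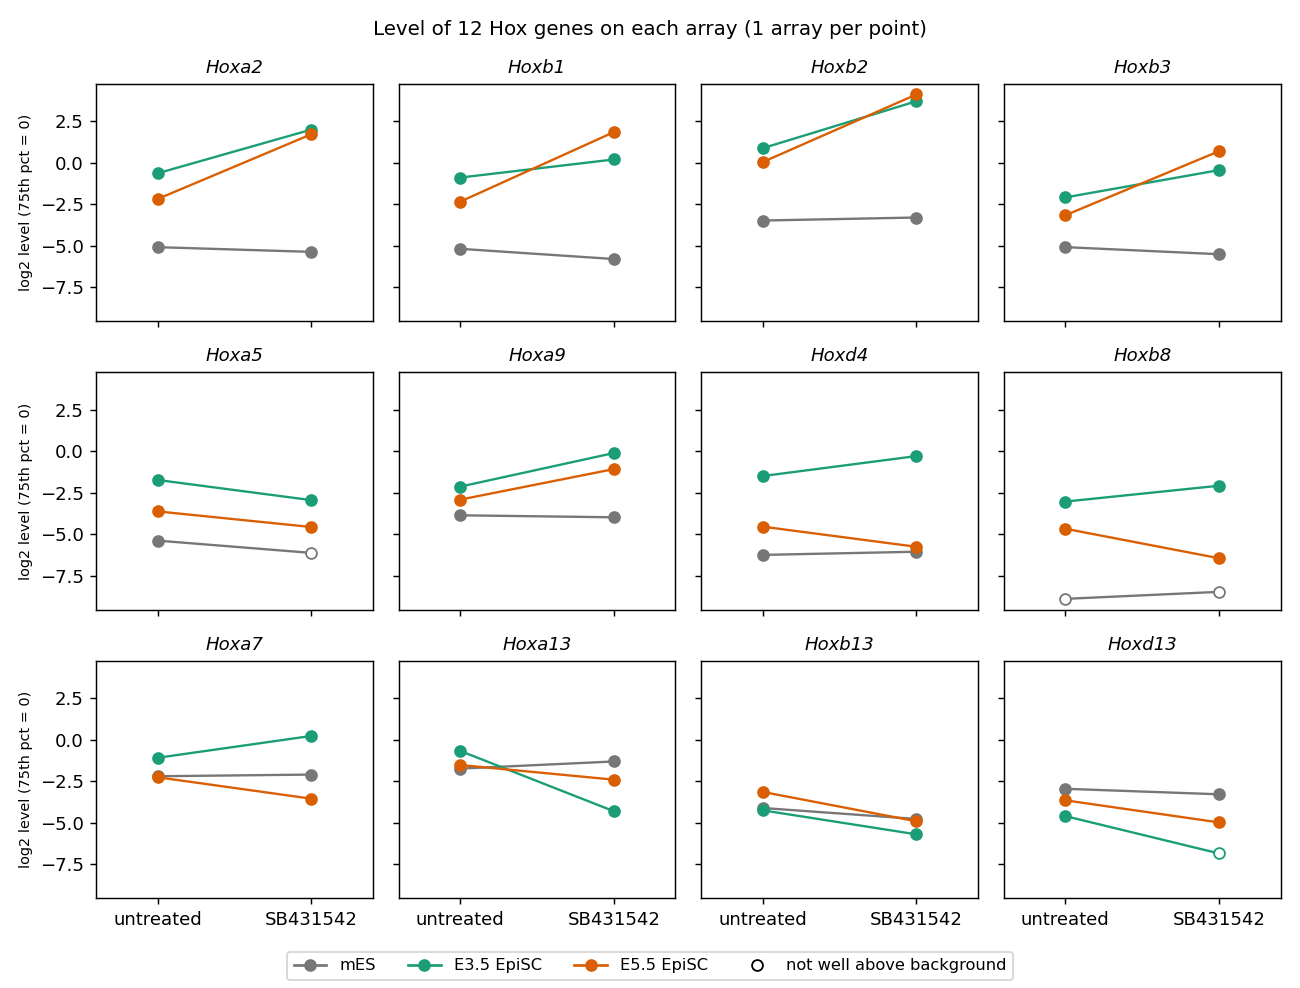
Log2 level relative to the 75th percentile of each array for 12 Hox genes, untreated and with SB431542, 1 array per point. Lines join the arrays of mES cells (grey), E3.5 EpiSCs (green) and E5.5 EpiSCs (orange), and open points are not well above background. Hoxb2 climbs from 0.88 to 3.71 and from 0.04 to 4.12 in the EpiSCs and reads -3.49 and -3.30 in mES cells, whereas Hoxd13 falls in both EpiSC lines.

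Hoxa9, a posterior gene also known for its role in blood progenitors, stood at -3.87 and -3.99 in mES cells, at -2.13 and -0.11 in E3.5 EpiSCs and at -2.92 and -1.07 in E5.5 EpiSCs. Its treated values exceeded the untreated ones by 2.03 and 1.84, so the lines moved by nearly the same amount. The size differed more for Hoxb1, at 1.09 in E3.5 and 4.20 in E5.5 EpiSCs, and for Hoxb3, at 1.65 and 3.87.

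The most posterior genes, of group 13, act in the distal limb, genital tubercle and tail. Hoxa13 stood at -1.74 and -1.31 in mES cells, at -0.68 and -4.32 in E3.5 EpiSCs and at -1.53 and -2.41 in E5.5 EpiSCs. Hoxb13 stood at -4.12 and -4.78, at -4.26 and -5.71, and at -3.15 and -4.92. Hoxd13 stood at -2.96 and -3.29, at -4.61 and -6.86, and at -3.65 and -4.99. Each treated EpiSC value lay below its untreated partner, and the mES pairs moved by less than 1 log2 unit. The treated E3.5 EpiSC value of Hoxd13 was not well above background, which makes that pair at least 4.43-fold lower. The fitted differences were -2.26 ± 0.73 for Hoxa13 (limma adjusted p = 0.202), -1.61 ± 0.51 for Hoxb13 (0.198), -1.79 ± 0.73 for Hoxd13 (0.271) and -0.65 ± 0.26 for Hoxc13 (0.26), whose treated EpiSC values were not above background. None passed.

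Other posterior and outlying members varied without a call. Hoxa11, of the forearm and uterus, stood at -5.52 and -4.24 in mES cells, at -4.85 and -5.46 in E3.5 EpiSCs and at -3.14 and -5.17 in E5.5 EpiSCs. It was the sole member past 2-fold between the mES arrays, 1 higher and 0 lower of 36, beside 1.41% and 1.13% of all genes. Hoxd1, a group 1 gene, was above background on the untreated mES and E3.5 EpiSC arrays alone, at -5.30 and -5.63, and read -6.07 in treated mES cells, -7.32 in treated E3.5 EpiSCs, and -6.38 and -6.87 in E5.5 EpiSCs. Hoxc8, a thoracic gene, was above background on the treated E3.5 EpiSC array alone, at -5.94, and read between -8.48 and -8.00 elsewhere.

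By the 2-fold rule, SB431542 gave 10 higher and 8 lower members in E3.5 EpiSCs (11.4% and 19.7% of all genes), and 5 higher and 8 lower in E5.5 EpiSCs (6.48% and 8.74%). The 5 that were higher in both lines make 13.9% of the members, beside 4.78% of all genes, and the 2 that were lower in both make 5.56%, beside 5.99%. By class, 5 of 12 anterior genes were higher and 2 lower in E3.5 EpiSCs, and 4 higher and 1 lower in E5.5 EpiSCs. For the 14 posterior genes the counts were 2 higher and 5 lower, and 1 higher and 5 lower. The 10 central genes gave 3 higher and 1 lower in E3.5 EpiSCs and 0 higher and 2 lower in E5.5 EpiSCs. The count of lower members in E3.5 EpiSCs and that of members lower in both lines lie near the background of all genes, whereas the share of lower members in E5.5 EpiSCs was above it. These are single pairs with no test, and the difference between classes was not tested.

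**Figure D3:**
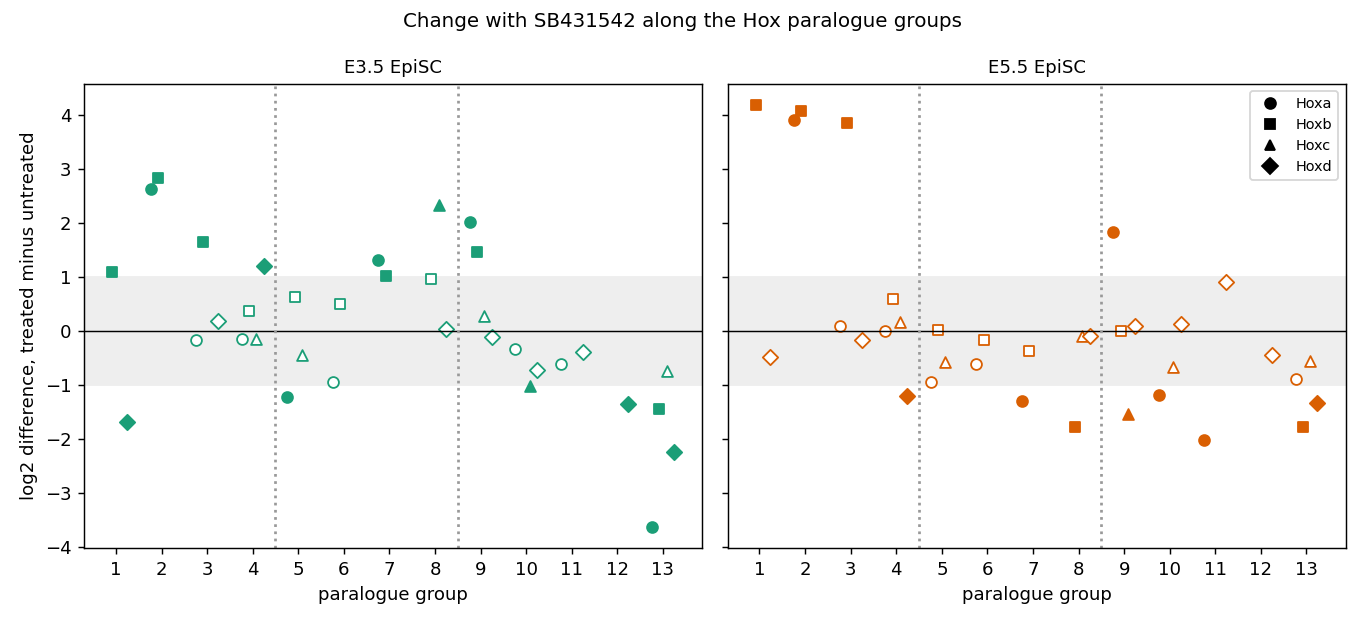
Log2 difference with SB431542 for 35 of the 36 tested Hox genes against their paralogue group, in E3.5 EpiSCs (left) and E5.5 EpiSCs (right), with 1 pair of arrays per panel. Marker shapes give the cluster, filled points passed the 2-fold rule, the grey band spans -1 to 1 and dotted lines part anterior, central and posterior genes. Hoxa2, Hoxb1, Hoxb2 and Hoxb3 lie at the top left of both panels, from 1.09 to 4.20, and the group 13 genes lie below 0 in both.

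The change in EpiSCs was then set against that in mES cells, which asks whether the response depends on the cell class. Of all genes and of the members 0 passed in limma (0% of all genes in either direction). The difference between the changes was 3.28 ± 0.68 for Hoxb2 (limma adjusted p = 0.4) and 3.56 ± 0.99 for Hoxa2 (adjusted p = 0.534), and 3 members were higher and 0 lower by unadjusted p under 0.05, beside 3.21% and 3.67% of all genes. A larger response in EpiSCs is thus not shown for any Hox gene at this number of arrays. Across all 3 kinds of cell, SB431542 again gave 0 calls among members and all genes (0%), with 1 member higher and 4 lower by unadjusted p under 0.05 (3.44% and 5.21%). The lowest of these p-values belonged to Hoxa5, at -0.97 ± 0.21, and Hoxb13, at -1.30 ± 0.29 (limma adjusted p = 0.502 for both).

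The E5.5 EpiSCs were compared with the E3.5 EpiSCs to ask whether the lines differ. Central Hox genes had lower levels in E5.5 EpiSCs, but 0 members and 0 of all genes (0%) passed in limma in the fit of line plus treatment. By unadjusted p under 0.05, 11 members were lower and 2 higher, beside 2.54% and 5.29% of all genes. The estimate was negative for all 10 central genes (median -1.45), beside medians of -0.18 for 12 anterior and 0.17 for 14 posterior genes and 0.11 for all genes. The slide differs between the lines, so line and slide cannot be told apart here.

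Hoxd4, a gene of the caudal hindbrain, stood at -6.26 and -6.06 in mES cells, at -1.50 and -0.29 in E3.5 EpiSCs and at -4.55 and -5.77 in E5.5 EpiSCs. The treated E5.5 value lay nearest to the mES values. Its difference between the lines was -4.27 ± 0.62 (limma adjusted p = 0.458), and without the E5.5 EpiSC array it was -5.22 (adjusted p = 0.0321). Hoxb5 stood at -5.36 and -5.34, at -3.92 and -3.29, and at -5.80 and -5.77, with a difference of -2.18 ± 0.29 (adjusted p = 0.458 in limma). Both E5.5 values of Hoxb5 lay below both mES values.

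Hoxb7 stood at -3.05 and -2.79 in mES cells, at -2.02 and -1.004 in E3.5 EpiSCs and at -3.19 and -3.57 in E5.5 EpiSCs. Hoxa7, of the same group, stood at -2.20 and -2.10, at -1.09 and 0.23, and at -2.26 and -3.56. Both genes, which act in the trunk, were highest on the treated E3.5 array and lowest on the treated E5.5 array. Hoxb9 stood at -3.33 and -3.45 in mES cells, at -2.48 and -1.02 in E3.5 EpiSCs and at -3.69 on both E5.5 arrays. Hoxc9, a thoracic gene, stood at -5.65 and -4.65, at -2.15 and -1.86, and at -3.79 and -5.33. For Hoxb7, Hoxa7, Hoxb9 and Hoxc9 every E3.5 EpiSC value was above every E5.5 EpiSC value. The share of all genes with such a split between the lines is not given, and the slide differs between the lines too. The differences between the lines were -1.87 ± 0.40 for Hoxb7 (limma adjusted p = 0.514), -2.48 ± 0.66 for Hoxa7, -1.94 ± 0.48 for Hoxb9 and -2.55 ± 0.67 for Hoxc9 (0.525 for all 3).

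By the 2-fold rule, 14 members were lower and 2 higher in untreated E5.5 than in untreated E3.5 EpiSCs (3.75% and 5.93% of all genes). On the treated arrays 12 were lower and 5 higher (5.91% and 10.6%). Of the 10 central genes, 6 were lower in the untreated pair and 8 in the treated pair, with 0 higher in either. The largest treated differences were those of Hoxd4, at -5.48, Hoxb8, at -4.38, and Hoxa7, at -3.79. The summed signal of the defining fibroblast markers was 22.7 in E5.5 and 5.90 in E3.5 EpiSCs untreated, and 12.5 and 16.8 treated. Over all 17 measured fibroblast markers it was 133 and 80.1 untreated, and 128 and 72.3 treated. Whether fibroblasts play a part in the Hox differences between the lines was not tested.

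**Figure D4:**
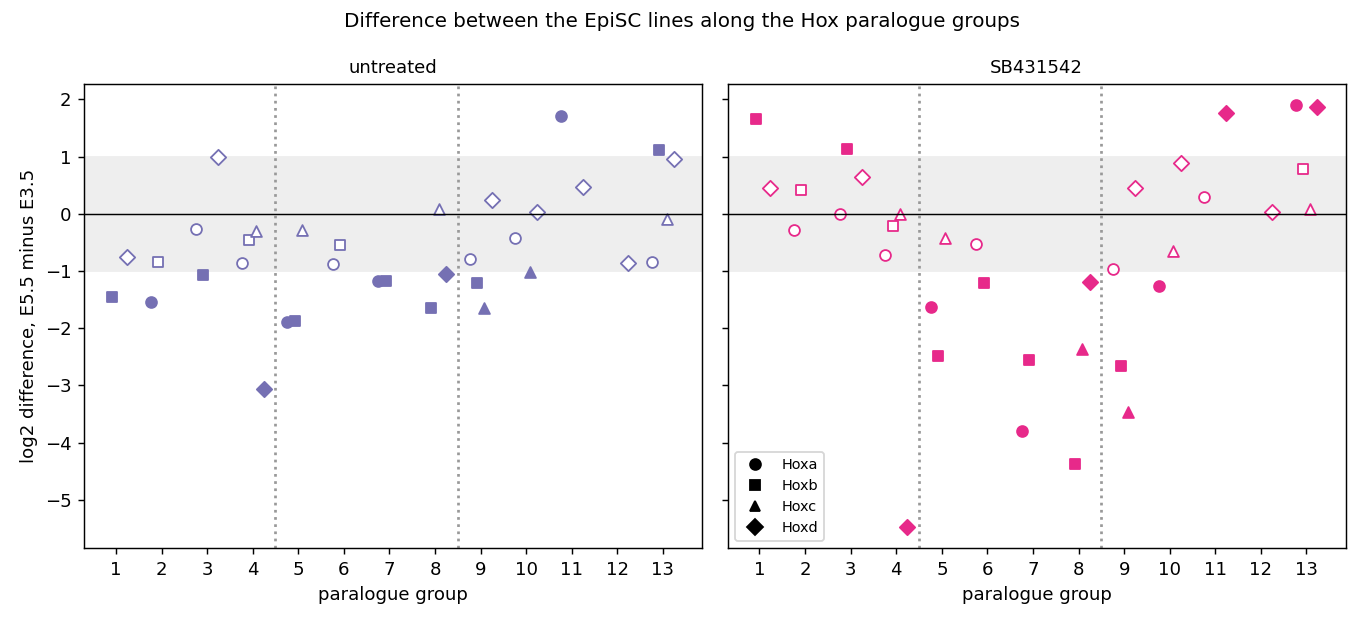
Log2 difference of E5.5 minus E3.5 EpiSCs for 35 of the 36 tested Hox genes against their paralogue group, untreated (left) and with SB431542 (right), with 1 pair of arrays per panel. Shapes give the cluster, filled points passed the 2-fold rule, and the grey band spans -1 to 1. Central genes, between the dotted lines, lie below 0 on the treated arrays without exception, down to -4.38 for Hoxb8.

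By their brightest probes, the remaining 17 measured members spanned less than 2 log2 units over the arrays. A dimmer Hoxa3 probe, described below, ran from -5.72 to -2.58. Hoxa3, Hoxc4, Hoxd9, Hoxb4 and Hoxc5, all above background on every array, ranged over 0.39, 0.31, 0.63, 0.85 and 0.88. Hoxd3, Hoxd10, Hoxb6, Hoxd12, Hoxa4, Hoxa6 and Hoxa10 ranged over 0.99 to 1.60 and were also detected on every array. Hoxc10 was above background on 5 arrays, Hoxc13 on 4, Hoxd8 on both E3.5 EpiSC arrays and Hoxd11 on the treated E5.5 EpiSC array alone. Hoxd8 was at least 2.22-fold higher on the treated E3.5 than on the treated E5.5 EpiSC array.

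Of the measured members 10 had several probes, and the probes did not always follow each other. The second probes of Hoxa13 and Hoxc10 were above background on no array and were not fitted, so the values of these genes rest on the main probe alone. The second Hoxb3 probe, to another transcript, gave 2.28 with SB431542 in EpiSCs beside 2.76 for the main probe, and both were above background on the 4 EpiSC arrays. The second Hoxd13 probe was above background on the mES arrays alone, at -4.40 and -4.53, and gives no size for the change in EpiSCs. For Hoxa3, which acts in the third pharyngeal arch, the brighter probe was flat (-0.04 with SB431542 in EpiSCs), whereas the dimmer probe, above background on all 6 arrays, gave 1.62. That probe stood at -5.45 and -5.72 in mES cells, at -3.82 and -2.58 in E3.5 EpiSCs and at -4.97 and -2.97 in E5.5 EpiSCs, so that its EpiSC and mES values did not overlap. Between the lines, the second Hoxb9 probe gave -3.03 beside -1.94 for the main one, with both above background on all 6 arrays. The probes of Hoxa4, also above background on all 6 arrays, went opposite ways: the second gave 0.75 between the lines and -0.42 for EpiSCs against mES cells, beside -0.78 and 1.03 for the main one. The second probes of Hoxd9 and Hoxb8 were above background on the untreated mES and both E3.5 EpiSC arrays and on neither E5.5 array, and that of Hoxd3 on the treated E3.5 EpiSC array alone, so no size is given for them. Their E3.5 EpiSC values were -4.35 and -5.01 for Hoxd9 and -5.89 and -4.75 for Hoxb8, and the treated one was -4.16 for Hoxd3. The main probes of Hoxd9 and Hoxd3, detected on every array, gave 0.34 and 0.82 between the lines. The second probes of Hoxd9 and Hoxd3 went the other way, being detected in E3.5 EpiSCs and not in E5.5 EpiSCs. None of the second probes that were fitted passed.

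Hox proteins bind DNA together with TALE homeodomain cofactors, and these were described from a fixed list of 9 genes, all measured on every array. For this and every other list, calls stand beside 0.39% higher and 1.11% lower of all genes for EpiSCs against mES cells. For SB431542 in EpiSCs these shares were 0.892% and 1.2%. By unadjusted p under 0.05 in limma they were 8.46% and 7.89%, and 8.25% and 11.6%, in that order. In untreated EpiSCs 3 of the 9 passed as higher than in mES cells and 0 as lower, among them Meis1 by 3.42 ± 0.33 (limma adjusted p = 0.0286) and Meis2 by 4.66 ± 0.53 (0.0395). After SB431542 in EpiSCs, Meis1 rose by a further 3.97 ± 0.27 (limma adjusted p = 0.0227), 1 of 9 higher and 0 lower. Meis1, a partner of Hox proteins in blood and hindbrain, stood at -5.73 and -4.15 in mES cells, at -2.34 and 1.54 in E3.5 EpiSCs and at -2.26 and 1.79 in E5.5 EpiSCs. Meis2 stood at -1.51 and -1.70, at 3.64 and 5.30, and at 2.66 and 4.87. The list's median was 2.15 for EpiSCs against mES cells and 1.15 for SB431542 in EpiSCs, beside -0.06 and -0.19 for all genes. Meis1 and Meis2 were higher on every EpiSC array than on either mES array.

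Known upstream regulators of Hox genes formed a list of 27, of which 25 were measured and 24 tested. In EpiSCs 3 were higher than in mES cells and 0 lower: Dhrs3 by 4.86 ± 0.42 (limma adjusted p = 0.0235), Fgf8 by 4.59 ± 0.36 (0.0201) and T, the primitive streak factor Brachyury, by 3.68 ± 0.35 (0.0286). These 3 fell with SB431542 in EpiSCs. Dhrs3, which reduces retinaldehyde and so limits retinoic acid, fell by 4.46 ± 0.34 (limma adjusted p = 0.0253), Fgf8 fell by 5.83 ± 0.29 and T fell by 4.95 ± 0.29 (0.0227 each). Crabp2, which carries retinoic acid to its receptors, rose by 4.09 ± 0.42 (limma adjusted p = 0.0338), and Cyp26b1, which degrades it, by 4.39 ± 0.48 (0.0345). The list thus held 2 higher and 3 lower genes.

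Cdx2, an activator of central Hox genes, stood at -4.57 and -5.46 in mES cells, at 0.62 and -7.17 in E3.5 EpiSCs and at -4.28 and -7.95 in E5.5 EpiSCs. It was high on the untreated E3.5 EpiSC array alone and not well above background on either treated EpiSC array. Wnt3a, a posterior Wnt ligand, stood at -4.35 and -4.19, at -2.60 and -0.06, and at -3.55 and 1.44, highest on both treated EpiSC arrays. Cyp26a1, which degrades retinoic acid, stood at -4.37 and -4.02, at -0.58 and -4.36, and at 1.55 and -1.29.

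Among 22 measured regulators of the Polycomb and Trithorax groups, of a list of 28, 0 passed in EpiSCs against mES cells, with 3 higher and 4 lower by unadjusted p under 0.05 in limma. With SB431542 in EpiSCs 2 rose and 2 fell. Among these, Cbx8 rose by 2.72 ± 0.29 (limma adjusted p = 0.0344), whereas Cbx7 changed by -3.23 ± 0.32 (0.0326) and Phc1 by -2.27 ± 0.31 (0.0484). Cbx7 and Cbx8 are alternative chromodomain subunits of Polycomb repressive complex 1, and Phc1 is another of its subunits. The list's medians were -0.32 and 0.01.

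Genes named as neighbours of the clusters gave 0 calls of 21 measured in both comparisons, with 2 higher and 1 lower, and 1 higher and 1 lower, by unadjusted p under 0.05 in limma. Over all genes these unadjusted shares were 8.46% and 7.89%, and 8.25% and 11.6%, so the neighbours did not stand out. Of these 21, 20 lie within 1 Mb of a Hox cluster in RefSeq and Tax1bp3 does not. Their medians were -0.12 and -0.09. Of 9 genes of the hindbrain and spinal cord, 0 passed in EpiSCs against mES cells (3 higher by unadjusted p in limma) and 1 rose with SB431542 in EpiSCs: Irx3, by 2.98 ± 0.37 (limma adjusted p = 0.0431). Irx3 stood at -4.91 and -4.99 in mES cells, at -1.41 and 1.95 in E3.5 EpiSCs and at -1.47 and 1.12 in E5.5 EpiSCs. Of 8 tested genes of the forebrain and midbrain, regions where Hox genes are silent, 0 passed in either comparison, with 2 higher and 4 lower by unadjusted p after SB431542 in limma. Otx2, the forebrain and midbrain factor, stood at -0.04 and -0.39, at -0.18 and -3.61, and at 2.54 and -2.14. Its treated EpiSC values were the lowest of the 6 arrays, where Hoxb2 and Hoxa2 were highest.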

How the data were processed

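Total RNA, prepared with TRIzol and labelled with Cy3, was hybridised to 1-colour Agilent arrays, 1 per group, per the labels. The deposited scanner files hold spot intensity on a linear scale, with background subtracted, and per the file headers they come from Agilent Feature Extraction 10.7.1.1. Version 9.1 is named in the submitters' processing notes. A deposited value table held the same intensities at 45018 of 45018 values on each array. The files hold no gene names, so 24375 of 41174 probes were named by transcript accession through RefSeq (GRCm38.p6), and the member rule was applied to those symbols. Control spots and those marked as outliers were dropped, and repeats of a probe were averaged. The log2 values were computed from the deposited intensities, minus each array's 75th percentile of 43379 gene spots (1190 to 1801).

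Genes above background on at least 1 array were fitted with limma 3.58.1 in R 4.3.3 (Benjamini-Hochberg, 0.05). With 1 array per group, EpiSC lines served as replicates in a fit of 4 arms, and line plus treatment served the other comparisons (2 residual degrees of freedom each). Each mES arm has a lone array and is taken to vary as the EpiSCs do. Whether arrays stand for separate cultures is not given in the sources used here, and p-values then reflect only the spread among these samples, which may be technical. The treated and untreated arrays of a line are paired by the labels; the block on line is given where it changes a call. The 2-fold rule on single pairs has no test.

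Members with a log2 range of 2 or more are given by array, the others by range; the values of 1 member and 3 other genes, which stay in the counts and medians, are not reported here. The members, the lists of cofactors, regulators, neighbours and markers, and the rules were chosen with earlier results of these data known. Alternatives were normexp (offset 50, on the median foreground signal, since no mean signal is given), quantile scaling, filters, probe rules, each array left out, and slide 1 alone; every probe fitted on its own and the motif TGATNNAT were added after seeing the data. The scripts were tested on simulated data.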

Additional observations from a re-analysis of the deposited data

Results flagged for a closer look

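Hoxa7 and Hoxd4 moved in opposite directions with SB431542 in the EpiSC lines. Hoxa7 was 1.32 higher (log2) on the treated E3.5 EpiSC array and -1.29 on the E5.5 one, and Hoxd4 gave 1.204 and -1.22. Each value rests on 1 pair of arrays, the E3.5 pair spans 2 slides, and the difference between the lines was not tested.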

How the results depend on the processing

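For 33 values of single Hox genes picked for this check, no direction turned in any alternative run. The other values of the 36 tested members in the 5 comparisons were not followed in this way. The count of genes called in EpiSCs against mES cells was 242, fell to 119 on slide 1 alone and ran from 0 to 221 as single arrays were left out; the Hox calls, 1 in the full set, were 0 on slide 1 alone and 0 to 3. For SB431542 in EpiSCs, 338 genes were called, 540 among genes above background on all 6 arrays, 511 with every probe fitted on its own, 810 with the line as a replicate block and 0 to 258 with single arrays left out; the Hox calls were 1, and 2 with normexp, 2 with the filter on all 6 arrays, 3 with the replicate block and 0 to 2 with single arrays left out. Across 3 lines the count of 0 ran to 810 without either mES array, which leaves the EpiSC pairs alone, with 0 to 3 Hox calls. Between EpiSC lines it ran from 0 to 6, with 0 to 1 Hox calls. The difference between EpiSCs and mES cells in the response had 0 calls in each fit, the replicate block included. For EpiSCs against mES cells, the fit on slide 1 alone joined treated and untreated arrays, so its counts belong to another comparison. The cause was not tested in the other cases.

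Naming by the files' own gene names was not run, since they hold none. SB431542 in EpiSCs on slide 1 alone and the fits that would drop an mES array from a contrast that needs it could not be fitted. The number of arrays limits the precision, and values at background carry no order.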
